A study of Homo sapiens with 6 samples.

Results

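The amino acid transporter genes of 6 solute carrier families (SLC1, SLC3, SLC7, SLC36, SLC38 and SLC43) were followed in HEK293T cells with and without extra PRMT1. Members were the protein-coding genes whose current symbol is SLC1A, SLC3A, SLC7A, SLC36A, SLC38A or SLC43A followed by digits. This gave 40 of the 57500 gene identifiers in the deposited table. HEK293T is an established human embryonic kidney line. The control group holds 3 libraries titled mock, with the genotype WT and the treatment vector control. The PRMT1 group holds 3 libraries of cells transfected with PolyJet and a pcDNA3 plasmid carrying PRMT1, the enzyme behind most asymmetric dimethylation of arginines in proteins. All cells were of the same line and grown in the same medium. The protocol describes transfection for the PRMT1 condition alone, so how the vector control was handled is not given, and effects of transfection and of PRMT1 cannot be told apart if it differed. The labels do not state whether the 3 libraries of a group were separate cultures, so p-values rest on a spread between libraries that could be purely technical.

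Cells cannot make every amino acid, and charged or polar ones do not cross membranes unaided, so uptake, exchange and release run through dedicated carriers. SLC1 proteins move glutamate or small neutral amino acids with sodium. SLC7 proteins carry cationic amino acids on their own, or work as light chains that need a glycoprotein heavy chain of the SLC3 family to reach the cell surface. SLC38 proteins take up glutamine, alanine and related amino acids, SLC36 proteins couple amino acids to protons, often at lysosomes, and SLC43 proteins let large neutral amino acids through by facilitated diffusion. Several of these genes are known for transcriptional induction when amino acids run short, and some of the lysosomal members feed the mTORC1 growth pathway.

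Levels are given as TPM, a unit of transcript abundance scaled per gene length and to the same total per library, so levels can be compared between genes. The table allowed the reads behind it to be recovered, from 18196814 to 23163992 in a library. PRMT1 stood at 368 to 397 TPM in control cells and at 62890 to 84920 TPM in PRMT1 cells (exact two-sided permutation test, p = 0.1, the smallest that 3 against 3 allows), so every library matched its label. PRMT1 took 6.29 to 8.49% of all TPM in PRMT1 cells, which lowers the TPM of every other gene there. A gene entered the test when 3 or more of the 6 libraries reached 1 TPM, which 15341 genes did. Of them 49% changed, 40.3% upward and 8.64% downward with PRMT1 (limma, adjusted p under 0.05 by Benjamini-Hochberg), around a median log2 fold change of 0.30. Fold changes are differences of log2(TPM + 1), which are smaller than the ratio of TPM for genes of low level. The split depended on scaling. After median-of-ratios scaling, which sets that median near 0, 23.5% were higher and 24.1% lower, and after quantile normalization 20.3% and 19.4%. The words rose and fell are used for calls on the deposited TPM, and scaled values are those after median-of-ratios scaling. Of 9 markers of the line and of kidney progenitors all were detected and tested, 1 rose and 3 fell. Of the markers of immune, endothelial, fibroblast and hepatocyte cells, 4 of 5, 4 of 4, 4 of 5 and 4 of 4 stayed under 1 TPM in every library. Their summed levels per class lay between 0.0919 and 17.7 TPM in control cells and between 0.198 and 11.5 TPM in PRMT1 cells, with CD3E and TTR listed at 0 throughout. Most of the fibroblast sum came from COL1A1, which fell from 15.2 ± 2.61 to 9.83 ± 0.551 TPM (SD, n = 3 each; limma adjusted p = 0.0109).

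Amino acid transporter genes were mostly higher in the PRMT1 libraries, and none fell in TPM as deposited. Of the 40 genes, 23 were expressed highly enough to be tested. Of these, 19 rose, against 40.3% of all tested genes, and 0 fell, against 8.64% (limma, adjusted p under 0.05). The log2 fold changes ran from -0.11 for SLC7A3 to 1.45 for SLC1A4, with a median of 0.76 beside 0.30 for all tested genes. In bulk RNA a change in the number of cells that express a gene and a change in RNA per cell cannot be told apart. A rise of at least 1 on the log2 scale was seen in 3 members, against 9.96% of tested genes. The 3 PRMT1 values lay above the 3 control values in 21 of the 23 genes, against 49.8% of tested genes, and below them in 0, against 11.6%. After scaling, 13 members were higher and 1 was lower, against 23.5% and 24.1% of tested genes. As deposited, 20 of the 23 lay above the median of all tested genes. Scaling by a constant factor per library moves all genes nearly together, so the same count after scaling adds little. The count was 18 under quantile normalization and without PRMT1 replicate 3. It was 19 without control replicate 3 and PRMT1 replicate 2, and 20 after GC correction. Under quantile normalization 11 were higher and 2 were lower, against 20.3% and 19.4% of tested genes. With PRMT1 itself taken out and the TPM rescaled, 21 were higher, against 49.1% of tested genes. Among the tested members, SLC1A4, SLC7A11 and SLC38A9 did not reach 1 TPM in every control and passed the filter with the help of the PRMT1 libraries, so the counts above are a description and not independent of the filter for these 3 genes.

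**Figure D1:**
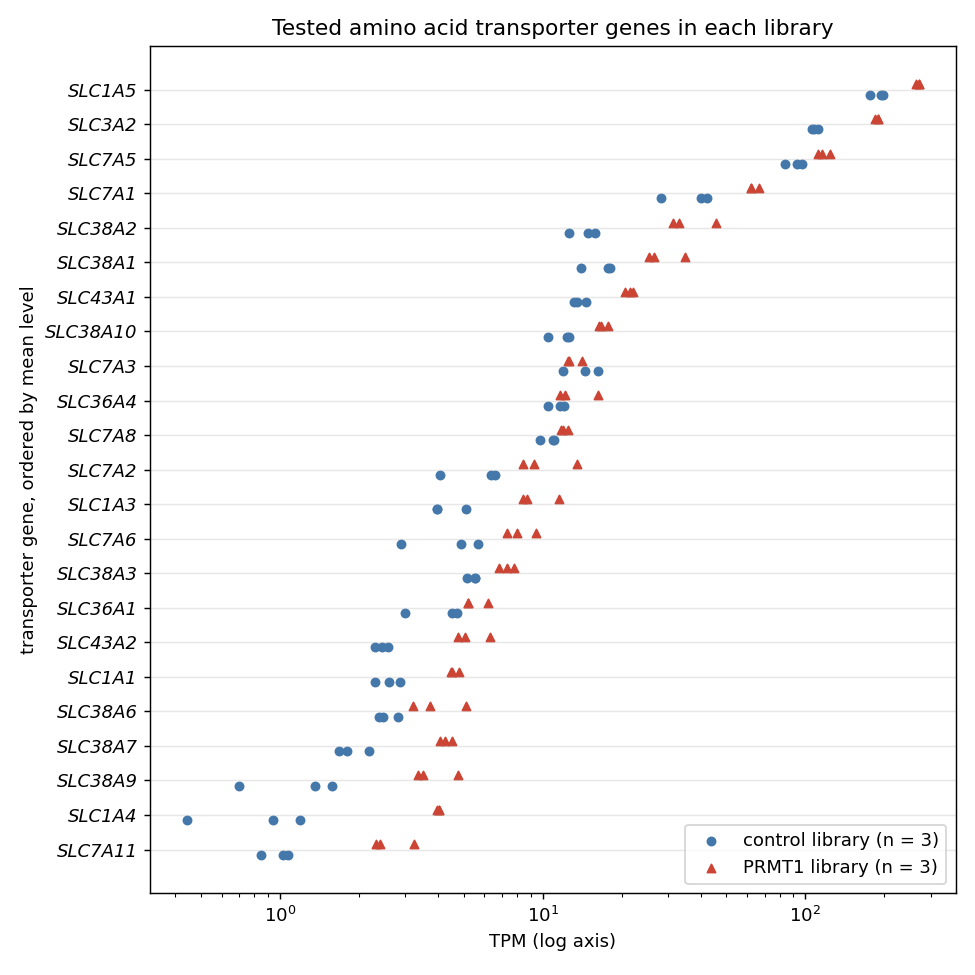
TPM (log axis) of the 23 tested transporter genes in each library, with circles for the 3 control and triangles for the 3 PRMT1 libraries, ordered by mean level. SLC1A5, SLC3A2 and SLC7A5 lie at the top near or above 100 TPM, SLC7A11 and SLC1A4 at the bottom, and the triangles lie right of all circles in 21 of 23 rows.

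The summed TPM of the 40 genes was 575, 582 and 509 in the controls and 832, 873 and 847 in the PRMT1 libraries. The groups did not overlap, and the mean was 1.53 times higher (556 ± 40.2 against 851 ± 21.1 TPM, SD, n = 3 each; exact two-sided permutation test, p = 0.1, the smallest possible). The 6 most abundant members, in order SLC1A5, SLC3A2, SLC7A5, SLC7A1, SLC38A2 and SLC38A1, held 82.2 ± 0.742% of it in the controls and 82.6 ± 0.871% in the PRMT1 libraries (SD, n = 3 each). The other members together were at 99.1 ± 11 and 148 ± 11.1 TPM. These sums were taken on the deposited TPM, where the typical tested gene was already higher with PRMT1 (median 0.30, log2). Median-of-ratios scaling divides each library by a factor. The factors were 0.918, 0.929 and 0.822 for the controls and 1.10, 1.24 and 1.09 for the PRMT1 libraries. The fold of 1.53 would thus be smaller after scaling, by an amount that was not computed.

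**Figure D2:**
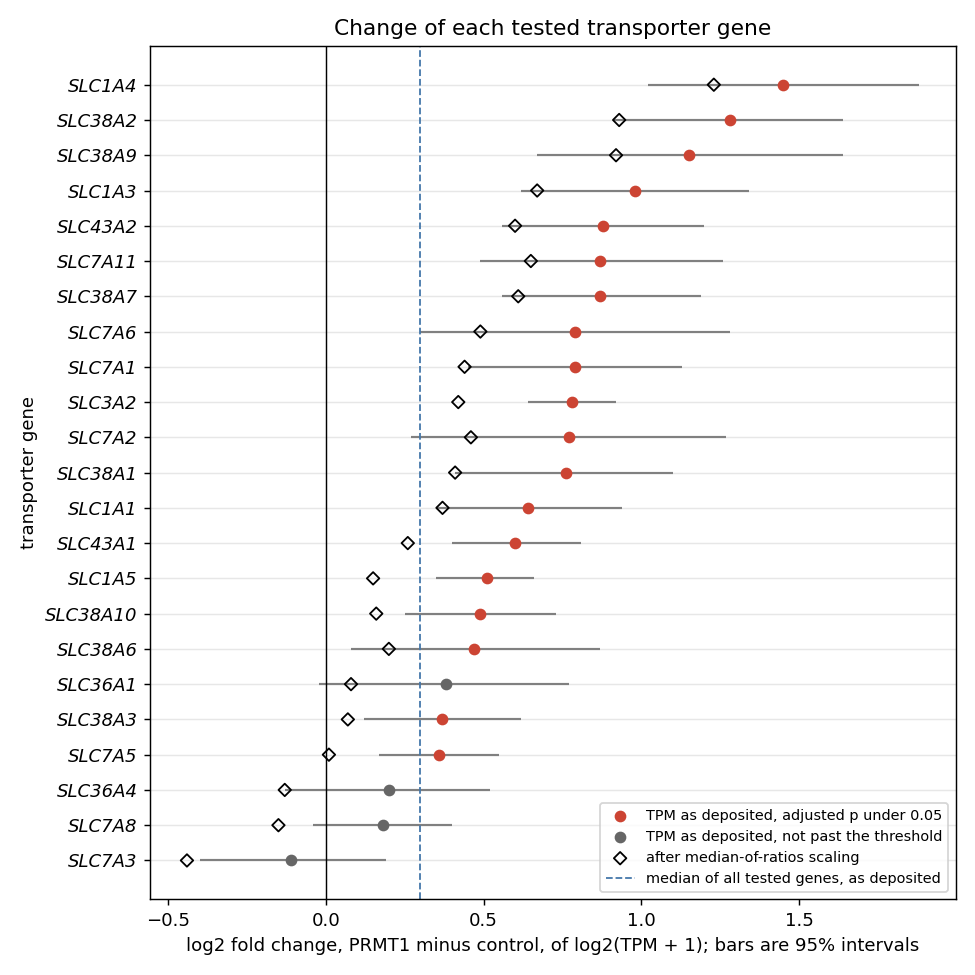
Log2 fold change (PRMT1 minus control, of log2(TPM + 1)) of each tested transporter gene with its 95% interval, red where the adjusted p is under 0.05 and grey where it is not, and open diamonds for the value after median-of-ratios scaling. The dashed line marks the median of all tested genes at 0.30, and SLC1A4, SLC38A2 and SLC38A9 lie farthest right.

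All 4 tested members of the SLC1 family rose, beside 40.3% of all tested genes. SLC1A4, counted among them, passed the filter with the help of the PRMT1 libraries. SLC1A5 (chromosome 19, 46774883 to 46788594, minus strand, GRCh38 with GENCODE 29) encodes ASCT2, an exchanger of glutamine and other neutral amino acids, and was the most abundant transporter. Its level was 197, 194 and 176 TPM in control cells and 265, 270 and 271 TPM in PRMT1 cells. The groups were well apart and the PRMT1 values nearly equal, with a log2 fold change of 0.51 (limma, SE 0.07, adjusted p = 0.000876). After scaling the change was 0.15 and no longer passed (adjusted p = 0.14), while it was 0.59 under quantile normalization (adjusted p = 0.000514). Part of its exons, 23.4%, is also covered by an unnamed antisense gene listed at a mean of 0.861 TPM in control cells and 1.57 TPM in PRMT1 cells. As no strand setting is stated, reads there cannot be assigned to a strand.

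SLC1A4 (chromosome 2, 64988477 to 65023865, plus strand), the related carrier ASCT1 for alanine, serine, cysteine and threonine, showed the largest change of all members. It was listed at 1.2, 0.94 and 0.44 TPM in control cells and at 3.95, 4.05 and 4.04 TPM in PRMT1 cells. Every PRMT1 library was far above the highest control, and the controls varied more among themselves than the PRMT1 libraries did. The log2 fold change was 1.45 (limma, SE 0.19, adjusted p = 0.000825), above that of 97.6% of tested genes, and 1.23 after scaling (adjusted p = 0.00147). It rests on 109 recovered reads over the 3 controls and 520 over the PRMT1 libraries. The glutamate carriers SLC1A3 (EAAT1) and SLC1A1 (EAAT3) rose as well. SLC1A3 went from 4.35 ± 0.665 to 9.57 ± 1.70 TPM (n = 3 each, SD), with a log2 fold change of 0.98 (adjusted p = 0.00185), and SLC1A1 from 2.59 ± 0.286 to 4.60 ± 0.193 TPM, a change of 0.64 (adjusted p = 0.00482). The call of SLC1A1 held after scaling (0.37, adjusted p = 0.0355) but not under quantile normalization (0.20, adjusted p = 0.214). The brain and retina glutamate carriers SLC1A2, SLC1A6 and SLC1A7 stayed at or below 0.112 TPM in every library and were not tested.

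SLC3A2 (chromosome 11, 62856102 to 62888875, plus strand), which encodes CD98hc, the heavy chain shared by several SLC7 light chains, rose with the smallest p of all members. Its level was 106, 112 and 108 TPM in control cells and 190, 184 and 189 TPM in PRMT1 cells. Replicates of a group lay close together, much closer than the groups to each other. The log2 fold change was 0.78 (limma, SE 0.06, adjusted p = 0.000138), 0.42 after scaling (adjusted p = 0.00691) and 0.80 under quantile normalization. The other heavy chain gene, SLC3A1, which serves the kidney and gut cystine carrier, did not exceed 0.0488 TPM, and its light chain gene SLC7A9 was listed at 0 in the controls with 8 reads over the PRMT1 libraries.

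Among light chains of CD98hc, SLC7A5 dominated. It encodes LAT1, the exchanger that brings in leucine and other large neutral amino acids (chromosome 16, 87830023 to 87869488, minus strand). Its level was 96.9, 93.0 and 83.4 TPM in control cells and 116, 112 and 124 TPM in PRMT1 cells. The groups did not overlap, and the log2 fold change was 0.36 (limma, SE 0.08, adjusted p = 0.00876), 0.06 above the median of all tested genes. After scaling the value was 0.01 (adjusted p = 0.957), with the median of all tested genes also at 0.01. GC correction, which left that median at 0.29, gave 0.53 (adjusted p = 0.00152). SLC7A6, y+LAT2, which exchanges cationic for neutral amino acids, rose by 0.79 on the log2 scale, from 4.47 ± 1.44 to 8.26 ± 1.10 TPM (SD, n = 3 each, adjusted p = 0.0167). Its change was 0.49 after scaling (adjusted p = 0.048), and its call was lost under quantile normalization (0.32, adjusted p = 0.168) and without PRMT1 replicate 2 (0.70, adjusted p = 0.0595). Of its exonic bases, 44.4% overlap SLC7A6OS on the opposite strand, which rose by 0.42 (adjusted p = 0.00864). SLC7A11, the cystine and glutamate exchanger xCT that supplies cysteine for glutathione, rose from 0.98 ± 0.12 to 2.65 ± 0.505 TPM (log2 fold change 0.87, SE 0.16, adjusted p = 0.00398), and by 0.65 after scaling (adjusted p = 0.00768). SLC7A8, LAT2, did not pass, with 10.6 ± 0.715 and 12.1 ± 0.339 TPM and a log2 fold change of 0.18 (95% interval -0.04 to 0.40). Its call depended on scaling. It was higher with PRMT1 taken out and the TPM rescaled (0.28, adjusted p = 0.037) and lower under quantile normalization (-0.24, adjusted p = 0.0455). SLC7A7, y+LAT1, reached at most 0.726 TPM, and SLC7A10 had 2 reads in all, so neither was tested.

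The heavy chain was more abundant relative to its light chains with PRMT1. The TPM of SLC3A2 divided by the summed TPM of its 6 light chain genes (SLC7A5, SLC7A6, SLC7A7, SLC7A8, SLC7A10 and SLC7A11) was 0.93, 1.01 and 1.11 in the controls and 1.38, 1.34 and 1.28 in the PRMT1 libraries. A ratio of genes within a library does not change when the library is scaled by a constant factor. It can change under quantile normalization or GC correction, for which it was not computed. The groups did not overlap (exact two-sided permutation test, p = 0.1, the smallest possible), and the mean ratio was 1.31 times higher with PRMT1. SLC7A5 held 84.8 ± 0.979% of the light chain TPM in control cells and 83.3 ± 1.83% in the PRMT1 libraries, so LAT1 was the most abundant light chain RNA in both groups. The share of SLC7A11 was 0.91 ± 0.0512% and 1.89 ± 0.407% (SD, n = 3 each). The ratio of SLC3A2 to its light chains and that of SLC38A2 to SLC38A1 below were chosen after the values were seen.

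**Figure D3:**
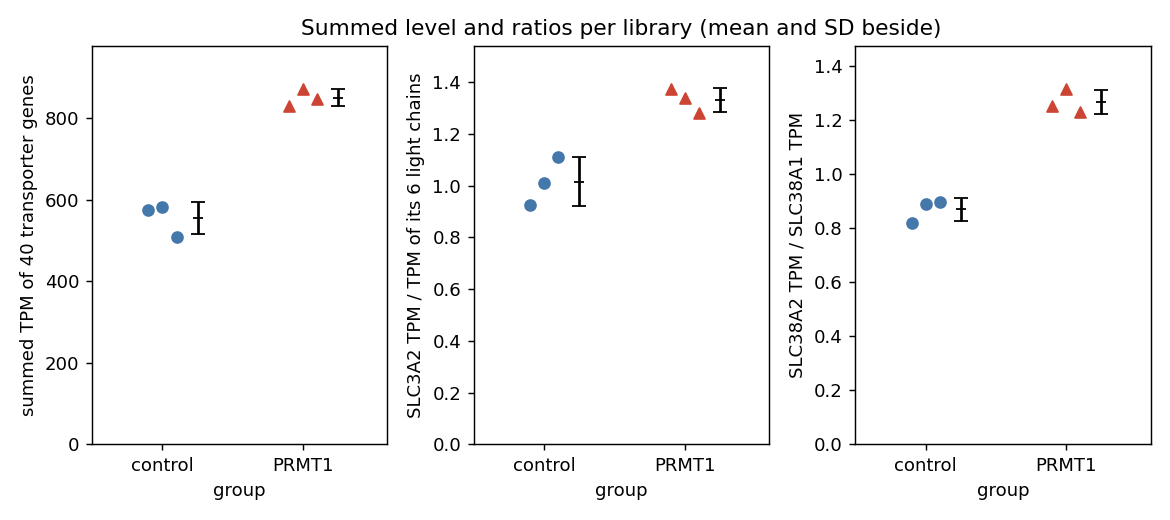
Summed TPM of the 40 transporter genes, SLC3A2 TPM over the TPM of its 6 light chain genes, and SLC38A2 TPM over SLC38A1 TPM, each in the 3 control and 3 PRMT1 libraries, with mean and SD beside the points and axes from 0. In each panel the 3 PRMT1 libraries lie above the 3 controls.

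The pseudogene SLC7A5P1 (chromosome 16, 29613104 to 29613640, minus strand) bears on the value of SLC7A5, because the sequences are nearly the same. It was listed at 7.14, 2.81 and 6.99 TPM in control cells and at 53.8, 43.6 and 50.3 TPM in PRMT1 cells, 55 and 494 recovered reads against 7828 and 10372 for SLC7A5. Its log2 fold change of 2.99 (limma adjusted p = 0.000252) exceeded that of the parent gene, and how far reads were exchanged between them was not tested. The 537 bases of SLC7A5P1 in GENCODE 29 align without a gap to bases 67 to 603 of an SLC7A5 transcript of 4537 bases, whose coding part starts at base 67. They differ at 18 bases, and the longest identical run is 72 bases. The 120 bases with the most differences (bases 136 to 255 of the transcript) are shown with the 7 differing bases in capitals, to show how little separates the genes.
SLC7A5: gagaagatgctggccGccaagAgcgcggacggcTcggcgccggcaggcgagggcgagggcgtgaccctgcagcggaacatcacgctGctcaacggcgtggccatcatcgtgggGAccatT
SLC7A5P1: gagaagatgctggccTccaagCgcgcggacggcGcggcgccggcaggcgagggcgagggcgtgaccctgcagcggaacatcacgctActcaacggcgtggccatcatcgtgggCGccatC
The second such pseudogene, SLC7A5P2, matches over 536 bases with 20 differences and was listed at 0 in all libraries.

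Of the cationic amino acid transporters, SLC7A1 and SLC7A2 rose and SLC7A3 did not. SLC7A1 (chromosome 13, 29509410 to 29595688, minus strand) encodes CAT1, the widespread carrier for arginine and lysine. Its level was 40.1, 42.2 and 28.2 TPM in control cells and 62.0, 66.6 and 62.3 TPM in PRMT1 cells. Control 3 stood well below the other controls, and all PRMT1 values were above them, with a log2 fold change of 0.79 (limma, SE 0.15, adjusted p = 0.00374) and 0.44 after scaling (adjusted p = 0.0138). SLC7A2 (CAT2) rose from 5.67 ± 1.38 to 10.4 ± 2.74 TPM (SD, n = 3 each; log2 fold change 0.77, adjusted p = 0.0197), a call lost without PRMT1 replicate 2 (0.58, adjusted p = 0.0566), after scaling (0.46, adjusted p = 0.0507) and under quantile normalization (0.32, adjusted p = 0.162). SLC7A3 (CAT3), on chromosome X, was the one tested member with a lower mean in the PRMT1 libraries, 14.2 ± 2.17 against 13.1 ± 0.888 TPM. Its groups overlapped and its log2 fold change was -0.11 (95% interval -0.40 to 0.19, adjusted p = 0.503). Its change was above that of 20.4% of tested genes, and it was lower past the threshold after scaling (-0.44, adjusted p = 0.0146). The SLC7 genes not yet named, SLC7A4, SLC7A13 and SLC7A14, are listed here without regard to substrate. Each had at most 1 recovered read over all libraries.

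Every one of the 7 tested SLC38 genes rose as deposited, 4 of them also after scaling, beside 40.3% and 23.5% of all tested genes. SLC38A9, in both counts, passed the filter with the help of the PRMT1 libraries. SLC38A2 (chromosome 12, 46358189 to 46372867, minus strand) encodes SNAT2, a sodium-coupled carrier of neutral amino acids known for its induction by amino acid shortage. Its level was 14.8, 15.8 and 12.6 TPM in control cells and 33.2, 45.7 and 31.3 TPM in PRMT1 cells. PRMT1 library 2 was the highest, and even the lowest PRMT1 value was far above the highest control. The log2 fold change was 1.28 (limma, SE 0.16, adjusted p = 0.000668), above that of 95.8% of tested genes, and 0.93 after scaling (adjusted p = 0.00061). Its neighbour SLC38A1 (46183063 to 46270017, minus strand), the glutamine carrier SNAT1, was at 18.1, 17.8 and 14.1 TPM in control cells and at 26.5, 34.7 and 25.5 TPM in PRMT1 cells. It rose by 0.76 (SE 0.15, adjusted p = 0.00463), and by 0.41 after scaling (adjusted p = 0.0108).

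The order of these neighbours in TPM differed between the groups. SLC38A2 per SLC38A1 was 0.82, 0.89 and 0.90 in the controls and 1.25, 1.32 and 1.23 in the PRMT1 libraries. By TPM, SNAT1 RNA was thus the more abundant in every control and SNAT2 RNA in every PRMT1 library. This order rests on the gene lengths used, 10015 exonic bases for SLC38A1 and 6602 for SLC38A2. In recovered reads SLC38A1 was ahead in both groups, with 3021 against 1723 over the controls and 5432 against 4554 over the PRMT1 libraries. The mean ratio was 1.46 times higher (exact two-sided permutation test, p = 0.1, the smallest possible). SLC38A4, in the same cluster, had 4 reads over the controls and 2 over the PRMT1 libraries.

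SLC38A9 (chromosome 5, 55625845 to 55773194, minus strand), the lysosomal carrier that reports arginine to mTORC1, was at 1.36, 1.58 and 0.70 TPM in control cells and at 3.36, 4.78 and 3.50 TPM in PRMT1 cells. The groups were apart by more than their spread, with a log2 fold change of 1.15 (limma, SE 0.21, adjusted p = 0.00325) and 0.92 after scaling (adjusted p = 0.00473). SLC38A7, SNAT7, which exports glutamine from lysosomes, rose from 1.89 ± 0.261 to 4.29 ± 0.216 TPM (n = 3 each, SD), with a log2 fold change of 0.87 (adjusted p = 0.00169), and 0.61 after scaling (adjusted p = 0.00666). SLC38A10 rose from 11.8 ± 1.18 to 17.0 ± 0.703 TPM (0.49, adjusted p = 0.00625). SLC38A3 (SNAT3), a glutamine carrier of liver, brain and kidney, rose from 5.41 ± 0.211 to 7.30 ± 0.476 TPM (0.37, adjusted p = 0.0223). Neither passed after scaling (adjusted p = 0.133 and 0.63), and SLC38A3 also missed the threshold without control replicate 1 or 2 or PRMT1 replicate 3 (adjusted p = 0.0606, 0.0515 and 0.0807). SLC38A6 passed narrowly (0.47, adjusted p = 0.0492), a call lost after scaling (0.20, adjusted p = 0.26), under quantile normalization (0.03, adjusted p = 0.87), after GC correction (0.33, adjusted p = 0.0744), without an expression filter (adjusted p = 0.122) and without any one of 5 libraries (adjusted p = 0.0774 to 0.115). Its exons share 245 bases with TRMT5 on the opposite strand, whose mean was 4.06 TPM in control cells and 13.2 TPM in PRMT1 cells. SLC38A5 had 9 reads over the controls and 30 over the PRMT1 libraries, and SLC38A8 and SLC38A11 had 4 and 0 reads in all.

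The SLC36 family was the one in which no tested member passed. SLC36A1, the proton-coupled carrier PAT1 of lysosomes, was at 4.08 ± 0.953 and 5.52 ± 0.567 TPM (n = 3 each, SD), with a log2 fold change of 0.38 (95% interval -0.02 to 0.77, limma adjusted p = 0.0991). SLC36A4 (PAT4) was at 11.4 ± 0.81 and 13.4 ± 2.54 TPM, a change of 0.20 (95% interval -0.13 to 0.52, adjusted p = 0.271) with 1 PRMT1 library, replicate 2, well above the rest at 16.3 TPM. The intervals include both no change and the median of all tested genes. SLC36A2 and SLC36A3, in the same cluster on chromosome 5 as SLC36A1, had 0 and 1 reads in all.

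Both tested members of the SLC43 family rose, beside 40.3% of all tested genes. SLC43A1 (LAT3), a facilitated carrier of leucine and other large neutral amino acids, went from 13.8 ± 0.781 to 21.4 ± 0.747 TPM (n = 3 each, SD), with a log2 fold change of 0.60 (limma, SE 0.09, adjusted p = 0.00139). SLC43A2 (LAT4) went from 2.45 ± 0.141 to 5.39 ± 0.803 TPM, a change of 0.88 (SE 0.14, adjusted p = 0.0018). Both passed after scaling (0.26 and 0.60, adjusted p = 0.0381 and 0.014) but not under quantile normalization (adjusted p = 0.0591 and 0.0505). SLC43A3, a carrier of purine bases that is not an amino acid transporter despite its family, lies close to SLC43A1 on chromosome 11 and had 3 reads over the controls and 10 over the PRMT1 libraries.

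The 17 untested members split the families into an expressed and a nearly silent set. Their highest single value was 0.726 TPM (SLC7A7), and 4 were listed at 0 in all 6 libraries (SLC7A13, SLC7A14, SLC36A2 and SLC38A11). Without the expression filter, 1 of them was called, SLC7A9, on 0 reads against 8 (limma adjusted p = 0.0392). At this depth differences among the others were not detectable.

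In the start regions of the tested members that could be searched, none of 3 short motifs was common to all. RefSeq promoter sequences (GRCh38.p14) matched 31 of the 40 members, 19 of them tested, with up to 4 annotated starts per gene. The tested members SLC7A2, SLC7A3, SLC7A11 and SLC38A3 had none, and bases outside the stretch described next, such as introns, were not searched. In the 250 bases before each start, both strands were searched for TGATGNAA (the core of elements bound by ATF4 with C/EBP factors), CACGTG (the E-box of MYC and of the lysosomal TFE factors) and TGACNNNGC (the antioxidant response core). These motifs do not contain one another. Some of the 250-base stretches overlap annotated exons, in full for those of SLC38A6, SLC38A7 and SLC38A9. The SLC1A3 stretch with TGACNNNGC was also fully exonic. The SLC1A5 stretch with CACGTG and TGACNNNGC had 193 exonic bases. Stretches of nearby starts of a gene can share bases, as in SLC38A9, so the starts are not independent. TGATGNAA was found at 2 of the 38 starts of tested members (5.26%), beside 3.14% of all 35116 starts and 1.58% of the starts of tested genes. CACGTG was found at 5 of 38 (13.2%), beside 6.34% and 8.42%, and TGACNNNGC at 5 of 38 (13.2%), beside 10.9% and 11.7%. Start regions of 3 members are given 5′ to 3′ on the strand of the gene, with matches in capitals: the first start of SLC1A4, the member with the largest rise, which holds none, and the abundant SLC7A5 and SLC7A1, which hold CACGTG and TGACNNNGC. They lie at chr2:64988229-64988478, chr16:87869508-87869757 and chr13:29595689-29595938.
SLC1A4: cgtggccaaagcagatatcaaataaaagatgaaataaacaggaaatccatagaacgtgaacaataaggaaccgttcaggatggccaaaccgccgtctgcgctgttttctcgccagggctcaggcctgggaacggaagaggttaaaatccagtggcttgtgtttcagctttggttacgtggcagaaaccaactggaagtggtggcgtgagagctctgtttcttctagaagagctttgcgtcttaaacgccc
SLC7A5: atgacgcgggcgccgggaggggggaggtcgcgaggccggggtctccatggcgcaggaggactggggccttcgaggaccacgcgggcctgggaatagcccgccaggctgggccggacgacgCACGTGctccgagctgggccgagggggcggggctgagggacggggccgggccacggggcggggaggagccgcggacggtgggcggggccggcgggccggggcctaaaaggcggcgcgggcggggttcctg
SLC7A1: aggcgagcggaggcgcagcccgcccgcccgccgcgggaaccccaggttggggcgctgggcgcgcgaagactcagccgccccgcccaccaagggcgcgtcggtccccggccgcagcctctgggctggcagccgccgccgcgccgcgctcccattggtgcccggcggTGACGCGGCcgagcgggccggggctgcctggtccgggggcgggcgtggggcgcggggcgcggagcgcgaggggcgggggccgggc
A match describes these letters only, and no measurement of factor binding was used here.

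Libraries within a group differed in a way the transporters shared with other genes. Control replicate 3 had the lowest value of the controls for 21 of the 23 tested members, with a median deviation from the group mean of -0.12 on the log2 scale, beside -0.07 for all tested genes. PRMT1 replicate 2 had the highest value of its group for 14 of 23, with a median deviation of 0.06, beside 0.09 for all tested genes. Without both libraries, 18 members rose and 0 fell, against 37.2% of all tested genes higher. The call lost was that of SLC38A6.

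Changes in these libraries also moved with GC content. In each range of it, the median of the transporters lay above that of tested protein-coding genes. The median change of tested protein-coding genes was 0.48 (log2) for genes of low GC content (30.2 to 44.1%), 0.31 for the middle range and 0.12 for high GC content (54.2 to 76.8%), 3 ranges of equal gene number. The 8, 7 and 8 transporters in these ranges had medians of 0.82, 0.64 and 0.55. All 8 of the GC-rich members (SLC1A5, SLC3A2, SLC7A5, SLC38A3, SLC38A7, SLC38A10, SLC43A1 and SLC43A2) lay above the median of their range, as did 6 of 8 and 5 of 7 in the low and middle ranges. After correction for GC content 18 members were higher and 0 lower, against 41.6% and 7.76% of tested genes.

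**Figure D4:**
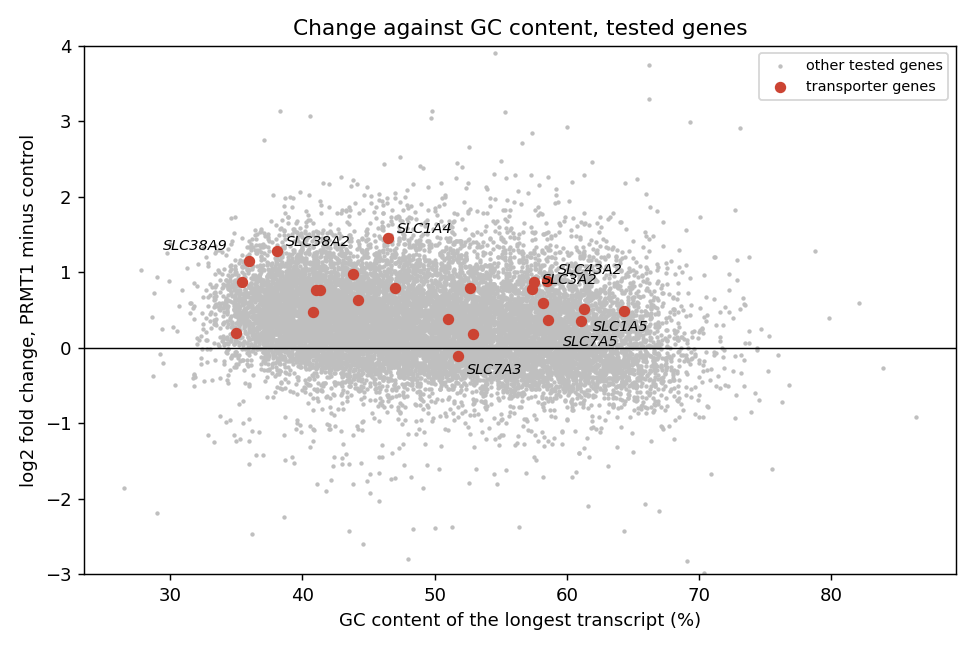
Log2 fold change (PRMT1 minus control) against GC content (%) of the longest transcript for tested genes in grey and the 23 tested transporters in red, 8 of them named; 6 other genes lie outside the axis range. The grey cloud slopes downward with GC content, and GC-rich transporters such as SLC3A2 lie above its middle.

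Counts in 5 further lists of amino acid handling are set beside the shares of all tested genes, 40.3% higher and 8.64% lower as deposited and 23.5% and 24.1% after scaling, and the median of 0.30. Among 29 further amino acid carriers, 17 were tested, of which 7 rose and 1 fell, with a median log2 fold change of 0.39, and 3 and 3 passed after scaling. The share that rose was near that of all tested genes. SLC66A1 (PQLC2), which exports cationic amino acids from lysosomes, rose by 1.22 (limma adjusted p = 0.000167), the mitochondrial branched-chain carrier SLC25A44 by 0.98 (adjusted p = 0.000775), the serine carrier relative SFXN3 by 0.77 (adjusted p = 0.00493) and the mitochondrial glycine carrier SLC25A38 by 0.51 (adjusted p = 0.00149). The call of SLC25A38 was lost after scaling (0.16, adjusted p = 0.0973) and that of SFXN3 under quantile normalization (0.31, adjusted p = 0.133). A list of 29 genes covered amino acid sensing upstream of mTORC1 and the mTORC1 subunit genes MTOR, RPTOR and MLST8. Of these 29, 13 rose and 4 fell, with a median of 0.29, and 7 and 10 passed after scaling. The median and the share that rose were near those of all tested genes. KICS2, which ties the GATOR1 complex to lysosomes, rose by 1.75 (adjusted p = 0.000201), the Rag GTPase gene RRAGA by 0.88 (adjusted p = 0.000189), the mTORC1 subunit gene RPTOR by 0.69 (adjusted p = 0.00165) and SAR1B by 0.60 (adjusted p = 0.00351). KICS2 and FNIP2, which are among the 13, did not reach 1 TPM in every control and passed the filter with the help of the PRMT1 libraries. SAR1B lost its call under quantile normalization (0.13, adjusted p = 0.326).

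Of 16 genes of the response to amino acid shortage around GCN2 and ATF4, 7 rose and 4 fell, with a median of 0.21, and 3 and 6 passed after scaling. The share that rose was near the 40.3% of all tested genes. The share that fell, 4 of 16, was above the 8.64% of all tested genes. The 6 of 16 lower after scaling were likewise above 24.1%, and the median was below the 0.30 of all tested genes. The pseudokinase gene TRIB3 rose by 1.04 and CEBPG, a partner of ATF4, by 0.79, whereas DDIT3 (CHOP) fell by 0.70 and the mTORC1 inhibitor gene DDIT4 fell by 0.44 (limma adjusted p = 0.000221, 0.000886, 0.00136 and 0.000808). DDIT4 lost its call under quantile normalization (-0.16, adjusted p = 0.0538). Of 22 tested enzymes of amino acid synthesis, 7 rose and 5 fell, with a median of 0.06, and 3 were higher and 11 lower after scaling. This is beside 40.3% and 8.64% of all tested genes as deposited and 23.5% and 24.1% after scaling. CTH, which makes cysteine from cystathionine, rose by 1.81, ASNS, asparagine synthetase, by 0.75, PSAT1 of serine synthesis by 0.60 and GOT1, aspartate aminotransferase, by 0.48 (adjusted p = 9.07e-05, 0.000745, 0.00195 and 0.00212). GOT1 did not pass after scaling (0.13, adjusted p = 0.216). The enzymes that fell were SHMT2, which makes glycine from serine in mitochondria (-0.44, adjusted p = 0.00443), and ASS1 of arginine synthesis (-0.41, adjusted p = 0.00337). The proline enzymes ALDH18A1 (-0.28, adjusted p = 0.0401) and PYCR1 (-0.20, adjusted p = 0.0373) and the glutamine synthetase gene GLUL (-0.20, adjusted p = 0.028) fell too. These 3 lost their calls with PRMT1 taken out and the TPM rescaled (adjusted p = 0.152, 0.254 and 0.226). They also lost them under quantile normalization (adjusted p = 0.156, 0.316 and 0.0697). All 5 were lower past the threshold after scaling.

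Of 8 tested genes whose proteins act on transporters, 4 rose and 1 fell, with a median of 0.21, and 3 and 4 passed after scaling, beside the same shares of all tested genes. The gene that fell was BSG, the abundant glycoprotein that accompanies several carriers to the surface, from 1571 ± 123 to 1145 ± 12 TPM (SD, n = 3 each; log2 fold change -0.45, limma adjusted p = 0.0014). AJUBA, a partner of glial glutamate carriers, rose by 0.96, CLTRN, which escorts neutral amino acid carriers in kidney, by 0.81, and NEDD4, a ubiquitin ligase, by 0.67 (adjusted p = 0.00092, 0.00581 and 0.0104). NEDD4 did not reach 1 TPM in every control and passed the filter with the help of the PRMT1 libraries. CLTRN and NEDD4 lost their calls under quantile normalization (0.35 and 0.29, adjusted p = 0.119 and 0.147).

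**Figure D5:**
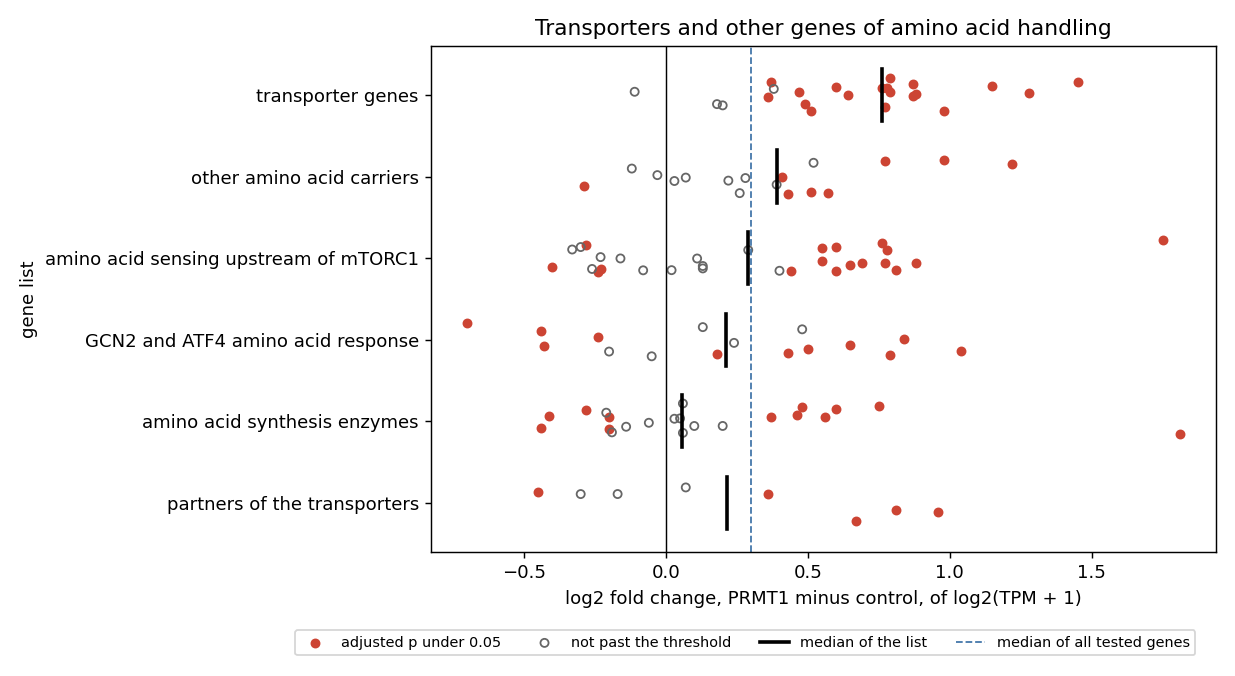
Log2 fold change (PRMT1 minus control, of log2(TPM + 1)) of every tested gene in the transporter set and in 5 lists of amino acid handling, filled where the adjusted p is under 0.05, with a black bar at the median of each list and a dashed line at the median of all tested genes. The transporter median of 0.76 lies right of the dashed line at 0.30, and that of the synthesis enzymes, 0.06, lies left of it.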

How the data were processed

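RNA was measured in 6 libraries, 3 per group, of polyA-selected RNA with randomly primed cDNA, per the labels' protocols. The authors deposited TPM values per Ensembl gene, each library summing to 1000000. Trimmomatic 0.36, STAR 2.5.2b, Subread 1.5.2 with featureCounts, and the build GRCh38 appear in the submitters' processing notes. Annotation, strand setting and the TPM calculation: not given in the sources used here.

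Of 57500 identifiers, 40907 had a symbol. Coordinates, lengths and GC content came from GENCODE 29. In each library, TPM times exonic length was a whole multiple of a common step for 95.5 to 95.7% of values under 50 reads (within 0.05 of a read, where chance gives 10%), which gave the recovered reads. A 1 kb gene with 3 reads has 0.459 to 0.526 TPM, depending on the library.

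Genes that reached 1 TPM in 3 or more libraries were compared on log2(TPM + 1), which understates changes of low genes, with limma 3.58.1 in R 4.3.3 (eBayes with trend, no covariate, Benjamini-Hochberg over all tested genes, threshold 0.05), after tests on simulated data. Libraries of a group differed by more than counting noise (chi-square per degree of freedom 2.7 to 24.6), so none was taken for a duplicate. The members and gene lists were chosen with earlier results of these data known. Values in every library are given for members past the threshold with a change of at least 1, for the 6 most abundant and for any that fell, and the 4 genes with the smallest p are named from each list. Alternatives were pseudocounts, filters, scalings, GC correction, variance settings, a replicate block and omission of libraries.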

Additional observations from a re-analysis of the deposited data

How the results depend on the processing

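Against 19 transporters higher and 0 lower, the alternatives other than quantile normalization gave 12 to 21 higher and 0 to 1 lower. The filter at 5 TPM left 16 transporters to test and 12 higher, beside 44.2% of the genes tested there. Median-of-ratios scaling gave 3605 genes higher and 3692 lower, with 1 transporter lower, and quantile normalization gave 3109 and 2979, with 11 transporters higher and 2 lower. Array weights gave 2838 genes lower and 1 transporter lower (SLC7A3, -0.18). Rescaled without PRMT1, 880 genes were lower, and SLC7A8 and SLC36A1 were also called higher. Without control replicate 3 and PRMT1 replicate 2, 2115 genes were lower. Without each library in turn, 16 to 18 transporters were higher and 0 lower, and 5082 to 5634 genes were higher and 935 to 1520 lower. Signs turned for SLC7A8 (-0.15) and SLC36A4 (-0.13) after median-of-ratios scaling. Under quantile normalization they turned for SLC7A8 (-0.24, past the threshold at adjusted p = 0.0455), SLC36A4 (-0.22), SLC36A1 (-0.08) and SLC38A3 (-0.10). SLC7A2, SLC7A6 and SLC38A6 lost their calls without an expression filter. The cause of these shifts was not tested. The replicate block gave 6275 genes higher and 1314 lower and 18 transporters higher, losing SLC38A6 (adjusted p = 0.055). Same-numbered libraries did not deviate together (correlations of -0.03, 0.06 and 0.02), and not every library correlated best with its own number. The folds of the summed level, of SLC3A2 per light chain and of SLC38A2 per SLC38A1, left out one library at a time as an alternative chosen after seeing the data, ranged from 1.47 to 1.57, 1.26 to 1.38 and 1.42 to 1.48. The summed level was of TPM as deposited in each case. Depth limits the 17 untested members.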
